A study of Mus musculus with 8 samples.

Results

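Amylin, encoded by Iapp, and 4 genes that encode partners of its receptor or of the closely related receptors, Calcrl, Ramp1, Ramp2 and Ramp3, were followed in mouse thymic lymphomas. These 5 genes were chosen by symbol, for their role, from the 13681 symbols of the deposited RNA-seq table. Earlier results of these data were known when they were chosen. All 5 are in the table and all 5 passed the filter on low values (FPKM no lower than 1 in 2 or more libraries). Ramp1 has 2 transcript entries and the other 4 genes have 1 each, so the 5 genes rest on 6 entries, and the Ramp1 entry with the higher mean was used.

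The study measured RNA in 8 thymic lymphomas, tumours of developing T cells, from C57BL/6 mice that lack p53 (p53-/-). An adenovirus was injected into the lymphoma of mice aged 10 weeks and the tissue was taken 48 hours later. The ΔNp63Δ/Δ;p53-/- label covers 3 libraries and the ΔNp73Δ/Δ;p53-/- label another 3, all given a virus that carries Cre recombinase and the red marker mCherry (Ad-CRE-mCherry), beside 2 control libraries labelled ΔNfl/fl;p53-/- that received the marker virus without Cre (Ad-mCherry). The p53 relatives p63 and p73 each exist in a full-length form and in a shorter ΔN form without the N-terminal activation domain, which opposes the full-length one. The control label does not say which gene is floxed, and the controls got another virus than both Cre groups, so the effects of Cre and of the deletion cannot be told apart. Whether libraries of a group came from separate animals is not given, and p-values therefore reflect only the spread between these samples, which may be technical. The groups are called ΔNp63-labelled, ΔNp73-labelled and control, with replicate numbers that only name a library.

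Amylin is a peptide hormone that pancreatic beta cells store and release together with insulin, and that slows gastric emptying and reduces food intake. Its receptor is the calcitonin receptor, a G protein-coupled receptor that raises cyclic AMP, joined to a receptor activity-modifying protein (RAMP), a single-pass membrane protein that changes which peptide the receptor binds. The same RAMPs also pair with the calcitonin receptor-like receptor, product of Calcrl: with RAMP1 it binds calcitonin gene-related peptide, and with RAMP2 or RAMP3 it binds adrenomedullin, a peptide needed for blood and lymph vessels. The calcitonin receptor gene, Calcr, was not analysed here. The question is whether the levels of the amylin gene and of these partners differed in tumours in which ΔNp63 or ΔNp73 was to be deleted.

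The promoter windows of Iapp and Calcrl are shown because the deleted proteins belong to a family of DNA-binding factors and because, with all 8 libraries and on the log2(FPKM + 1) scale used for testing, these 2 genes had the largest differences from control in the ΔNp63-labelled group; without ΔNp63-labelled replicate 2, a library that stood apart, those were Iapp and Ramp2. Each runs from 250 bases before to 50 bases after the transcript start on the strand of the gene, in RefSeq sequence of GRCm38.p6, which is a later build than that of the deposited table. RefSeq windows were matched for 4 of the 5 genes. The Iapp window is chr6:142298175-142298474 on the plus strand, and its capitals mark TATATA at bases 222 to 227, which starts 29 bases before the transcript start.
Iapp promoter: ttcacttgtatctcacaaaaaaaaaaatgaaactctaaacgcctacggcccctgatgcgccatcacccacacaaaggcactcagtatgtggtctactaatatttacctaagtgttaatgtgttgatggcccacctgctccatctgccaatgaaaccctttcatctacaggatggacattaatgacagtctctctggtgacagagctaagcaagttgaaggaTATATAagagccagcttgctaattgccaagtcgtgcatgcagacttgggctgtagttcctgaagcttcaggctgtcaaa
The Calcrl window is chr2:84425217-84425516 on the minus strand, and its capitals mark the p53-family half-site consensus at bases 252 to 261, just after the start.
Calcrl promoter: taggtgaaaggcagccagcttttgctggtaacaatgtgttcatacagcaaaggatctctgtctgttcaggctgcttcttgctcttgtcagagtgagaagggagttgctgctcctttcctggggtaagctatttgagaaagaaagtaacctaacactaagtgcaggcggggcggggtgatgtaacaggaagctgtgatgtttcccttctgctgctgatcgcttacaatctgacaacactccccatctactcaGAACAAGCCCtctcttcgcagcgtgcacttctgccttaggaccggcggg
The half-site was searched on both strands without mismatch, and since it reads alike on both strands, each place counts once. It occurs in 8.36% of 32851 RefSeq windows of this length, and the windows of Iapp, Ramp1 and Ramp3 hold no match to it. TATAAA, which 13.6% of windows hold on either strand, is in none of the 4. TATATA, a motif added after the Iapp window was seen, is in 5.67% of windows, and TGACG, the half-site bound by cyclic AMP-responsive factors, is in 20.8% of windows and among the 4 only in that of Ramp1. These matches describe letters in a window and do not show binding.

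Across the libraries as a whole, the thymocyte genes Rag1 and Cd3g, part of the machinery that rearranges and carries the T cell receptor, were present in all 8, at 51.9 to 965 FPKM for Rag1 and at 223 to 592 FPKM for Cd3g. FPKM is fragments per kilobase of transcript, scaled to library size, and here quantile-normalised by the authors. ΔNp63-labelled replicate 2 stood apart: its median correlation with the other libraries was 0.847, against 0.915 to 0.956 for the other 7, and its Rag1 level was the lowest. The differences of the members between groups are therefore also given without it where they moved. Trp63, the gene from which ΔNp63 is made, was at 6.57, 1.05 and 9.91 FPKM in ΔNp63-labelled replicates 1 to 3, at 13.8, 11.3 and 6.38 FPKM in the ΔNp73-labelled libraries and at 5.21 and 3.38 FPKM in the controls. The ΔNp63-labelled libraries thus lie on both sides of the controls, and a level of the whole gene does not separate ΔNp63 from the full-length forms, so the deletion is not shown by these values. Trp73 was not analysed here. Trp53, the gene of p53, was detected in every library, with 17.3, 16.1 and 46.3 FPKM for the ΔNp63 label, 66.1, 75.9 and 11.0 FPKM for the ΔNp73 label and 81.0 and 67.6 FPKM for the control label. The p53-/- allele is not described in the labels, so a level of the whole gene does not check it. Without counts in the table, library depth is unknown.

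In these tumours the mean levels of the members ran from Ramp1 at the top to Ramp3 at the bottom. Averaged over the 8 libraries, Ramp1 was at 27.3 FPKM, Calcrl at 15.7, Iapp at 7.26, Ramp2 at 4.22 and Ramp3 at 3.65. This order by FPKM, a measure per length, held in 6 of the 8 libraries. In control replicate 1, Ramp3 stood above Ramp2, and in ΔNp63-labelled replicate 2 the order was Ramp1, Ramp3, Iapp, Calcrl and Ramp2. As a percentile among all genes of the same library Ramp1 ranked at 77.0 to 87.1, Iapp at 34.0 to 64.7, Ramp2 at 25.5 to 49.0 and Ramp3 at 21.0 to 62.7. Calcrl ranged from 33.0 in ΔNp63-labelled replicate 2 to 78.4 in a control. Some neighbours in this order did not separate in FPKM. The ranges of Ramp2 and Ramp3 overlap in the ΔNp63-labelled group and in the controls, those of Iapp and Calcrl in the ΔNp63-labelled group, and those of Ramp1 and Calcrl and of Iapp and Ramp2 in the ΔNp73-labelled group.

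**Figure D1:**
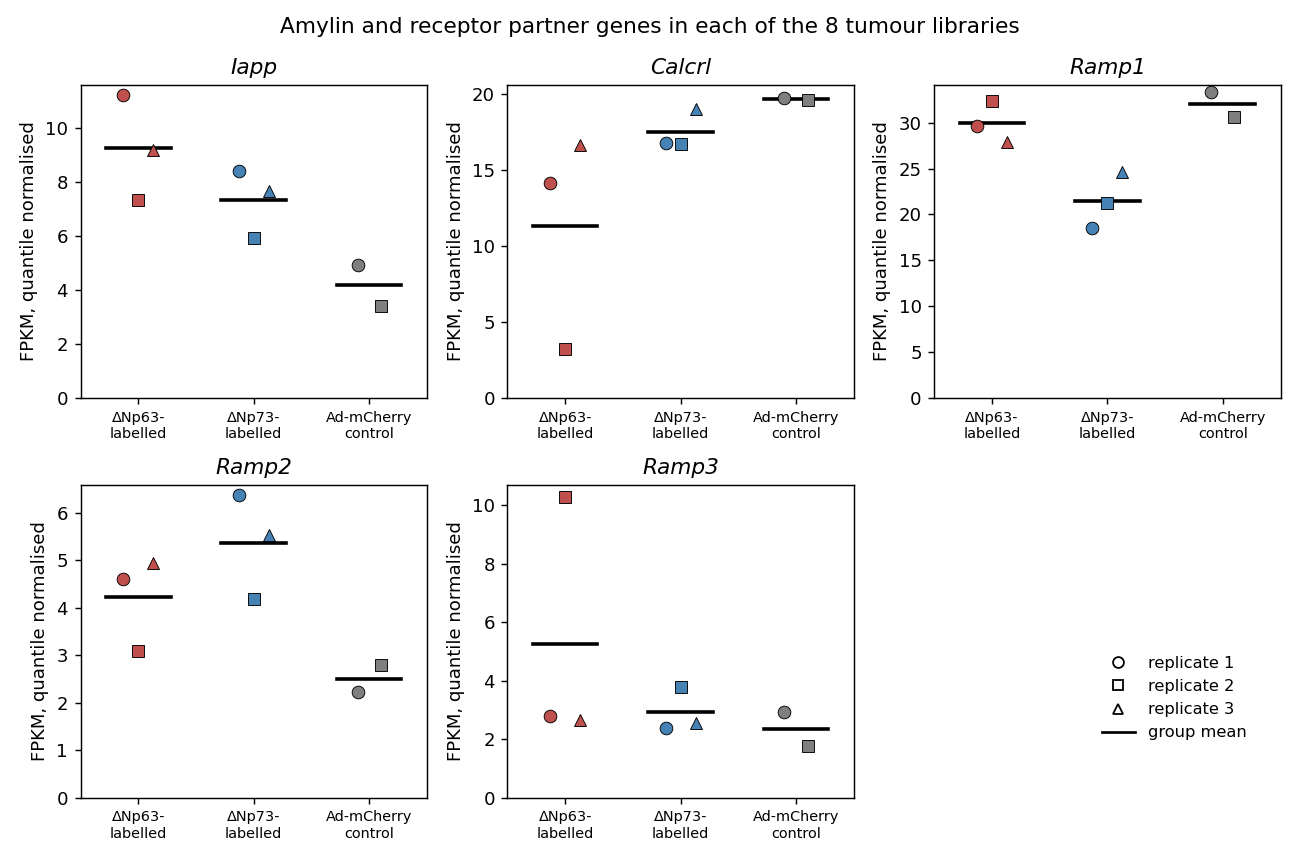
Level of each of the 5 genes in FPKM (vertical axis, linear, from 0) in every library, with 1 panel per gene, point shapes for replicates and a bar for the group mean; groups from left to right are ΔNp63-labelled (n = 3), ΔNp73-labelled (n = 3) and control (n = 2). Iapp and Ramp2 lie higher in both Cre groups than in the controls, Ramp1 lies lower in the ΔNp73-labelled group, and ΔNp63-labelled replicate 2 (square) lies apart for Calcrl at 3.19 FPKM and Ramp3 at 10.3 FPKM.

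Iapp, the ligand, was higher in all 6 Cre libraries than in either control, by 2.22-fold in the mean for the ΔNp63-labelled group and 1.76-fold for the ΔNp73-labelled group. Its level was 11.2, 7.34 and 9.17 FPKM in ΔNp63-labelled replicates 1 to 3, against 4.92 and 3.41 FPKM in control replicates 1 and 2. In the ΔNp73-labelled libraries it was 8.40, 5.94 and 7.68 FPKM. Neither Cre group overlaps the controls, while the 2 Cre groups overlap each other. The means were 9.24 ± 1.93 FPKM in the ΔNp63-labelled group, 7.34 ± 1.27 in the ΔNp73-labelled group (SD, n = 3 each) and 4.16 ± 1.07 in the controls (SD, n = 2). On the log2(FPKM + 1) scale, which understates the change of low genes, the difference from control was 0.99 (SE 0.23) in the ΔNp63-labelled group, 0.70 (SE 0.23) in the ΔNp73-labelled group and 0.84 (SE 0.21) for both Cre groups together. None of these passed the threshold of 0.05 in limma with Benjamini-Hochberg adjustment over the 12921 genes tested: the adjusted p was 0.212, 0.162 and 0.121 in that order. The difference of ΔNp73-labelled from ΔNp63-labelled libraries was -0.29 (SE 0.21, adjusted p = 0.550), and -0.43 (adjusted p = 0.324) without ΔNp63-labelled replicate 2.

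Calcrl, the receptor that the RAMPs also serve, was lower in every Cre library than in both controls, by little in most of them. It was at 14.1, 3.19 and 16.7 FPKM in ΔNp63-labelled replicates 1 to 3, against 19.8 and 19.6 FPKM in the controls. The ΔNp73-labelled libraries had 16.8, 16.7 and 19.0 FPKM, close to the controls and without overlap with them. The mean was 11.3 ± 7.15 FPKM in the ΔNp63-labelled group, 17.5 ± 1.32 in the ΔNp73-labelled group (SD, n = 3 each) and 19.7 ± 0.0937 in the controls (SD, n = 2). The log2 difference from control was -0.996 (SE 0.56) in the ΔNp63-labelled group and -0.16 (SE 0.56) in the ΔNp73-labelled group, with limma adjusted p of 0.483 and 0.883. It was 0.83 (SE 0.50) for ΔNp73-labelled over ΔNp63-labelled libraries, with an adjusted p of 0.515. Most of these differences in the ΔNp63-labelled group rest on replicate 2: without it the difference from control was -0.34 (adjusted p = 0.0820), and that of ΔNp73-labelled from ΔNp63-labelled libraries was 0.18 (adjusted p = 0.475).

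Ramp1, which makes an amylin receptor of the calcitonin receptor and the calcitonin gene-related peptide receptor of the Calcrl product, was lowest in the ΔNp73-labelled group. It stood at 18.6, 21.3 and 24.6 FPKM in the ΔNp73-labelled libraries, against 29.6, 32.3 and 27.8 FPKM in the ΔNp63-labelled ones. The controls had 33.4 and 30.6 FPKM. All ΔNp73-labelled libraries were below every library of the other groups, and the ΔNp63-labelled and control ranges overlap. The means were 29.9 ± 2.26 FPKM in the ΔNp63-labelled group, 21.5 ± 3.04 in the ΔNp73-labelled group (SD, n = 3 each) and 32.0 ± 1.94 in the controls (SD, n = 2). The log2 difference of the ΔNp73-labelled group was -0.56 (SE 0.16) from control and -0.47 (SE 0.14) from the ΔNp63-labelled group, with limma adjusted p of 0.125 and 0.439. The ΔNp63-labelled group differed from control by -0.094 (SE 0.16, adjusted p = 0.845), and by -0.15 (adjusted p = 0.476) without replicate 2.

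The 2 deposited entries of Ramp1 differ in their last exon, 2091 bases in the entry used (NM_016894) and 394 in the other (NM_178401), and share 2 of 3 coding segments, so that the first codes for 148 residues and the second for 103. The second entry was at 2.85, 7.69 and 1.60 FPKM in ΔNp63-labelled libraries and at 0.616, 3.18 and 3.60 FPKM in the ΔNp73-labelled ones, against 3.23 and 4.39 FPKM in the controls. Its groups overlap, and the entry used stood above it in all 8 libraries. How reads of the shared exons were divided between the entries is not given in the sources used here, so the level of each is uncertain.

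Ramp2, which with the Calcrl product forms an adrenomedullin receptor and is known from mouse knockouts to be needed for vessel integrity, was higher in all 6 Cre libraries than in either control. It was at 4.61, 3.09 and 4.95 FPKM in ΔNp63-labelled libraries and at 6.38, 4.18 and 5.54 FPKM in the ΔNp73-labelled ones, against 2.23 and 2.79 FPKM in the controls. The lowest Cre library, ΔNp63-labelled replicate 2, was just above the higher control, and the 2 Cre groups overlap. The mean was 4.22 ± 0.991 FPKM in the ΔNp63-labelled group, 5.37 ± 1.11 in the ΔNp73-labelled group (SD, n = 3 each) and 2.51 ± 0.396 in the controls (SD, n = 2). The log2 difference from control was 0.56 (SE 0.23) in the ΔNp63-labelled group, 0.85 (SE 0.23) in the ΔNp73-labelled group and 0.70 (SE 0.21) for both, with limma adjusted p of 0.369, 0.119 and 0.157. Between the Cre groups it was 0.29 (SE 0.21, adjusted p = 0.548), ΔNp73-labelled over ΔNp63-labelled, and 0.12 (adjusted p = 0.758) without ΔNp63-labelled replicate 2.

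Ramp3, the third RAMP, which forms an amylin receptor with the calcitonin receptor and a second adrenomedullin receptor with the Calcrl product, did not separate any pair of groups. It was at 2.78, 10.3 and 2.66 FPKM in ΔNp63-labelled libraries and at 2.40, 3.78 and 2.56 FPKM in the ΔNp73-labelled ones, against 2.95 and 1.77 FPKM in the controls. A single library, ΔNp63-labelled replicate 2, was far above the other 7, and all groups overlap. The mean was 5.24 ± 4.36 FPKM in the ΔNp63-labelled group, 2.91 ± 0.754 in the ΔNp73-labelled group (SD, n = 3 each) and 2.36 ± 0.829 in the controls (SD, n = 2). The log2 difference from control was 0.70 (limma adjusted p = 0.575) in the ΔNp63-labelled group and 0.17 (adjusted p = 0.616) without replicate 2. In the ΔNp73-labelled group it was 0.23 (adjusted p = 0.812). The difference of ΔNp73-labelled from ΔNp63-labelled libraries was -0.48 (adjusted p = 0.606), and 0.057 (adjusted p = 0.921) without that replicate.

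With all 8 libraries, 0 of the 5 members passed the adjusted threshold in any comparison, and few genes of any kind did. limma called 0.0929% of the 12921 genes tested in ΔNp63-labelled against control libraries, 0.0542% in ΔNp73-labelled against control, 0.116% in both Cre groups against control and 0.0542% in ΔNp73-labelled against ΔNp63-labelled. The comparisons with control share the same 2 control libraries and are not independent. At an unadjusted limma p under 0.05, Iapp and Ramp2 were higher in the ΔNp63-labelled group, where 5.96% of genes were called in that direction, and in the ΔNp73-labelled group, where 11.4% were. Ramp1 was lower in the ΔNp73-labelled group at that level than in control, as were 9.83% of genes, and than in the ΔNp63-labelled group, as were 4.4%. For both Cre groups together, Iapp and Ramp2 were higher at that level, as were 9.34% of genes. Calcrl and Ramp3 reached an unadjusted p under 0.05 in none of the 4 comparisons.

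Groups that do not overlap were common among all genes. In ΔNp63-labelled against control libraries, Iapp and Ramp2 were higher without overlap, as were 12.6% of genes, and Calcrl was lower, as were 17.7%. In ΔNp73-labelled against control libraries the same 2 genes were higher, with 27.7% of genes, and Calcrl and Ramp1 lower, with 35.7%. Over all 6 Cre libraries, Iapp and Ramp2 were above both controls, as were 8.47% of genes, and Calcrl was below both, as were 12.7%. Between the Cre groups, Calcrl was higher in the ΔNp73-labelled libraries, with 10.3% of genes, and Ramp1 lower, with 8.58%. An exact permutation test over libraries, two-sided, gave its smallest possible p for each of these separated groups, 0.2 for 3 against 2 libraries, 0.1 for 3 against 3 and 0.0714 for 6 against 2, so it could not pass 0.05 in any of them.

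Leaving out ΔNp63-labelled replicate 2 moved 3 members past the threshold, together with many other genes. Iapp then rose by 1.12 in the ΔNp63-labelled group (limma adjusted p = 0.0104) and by 0.70 in the ΔNp73-labelled group (adjusted p = 0.0279), and Ramp2 rose by 0.73 (adjusted p = 0.0313) and 0.85 (adjusted p = 0.00969). Ramp1 had a log2 difference of -0.56 from control in the ΔNp73-labelled group with an adjusted p of 0.0171. The library left out is in neither group of ΔNp73-labelled against control. The differences in that comparison were therefore the same as with all libraries, and only their SE and p-values changed. In these fits 22.5% of 12782 genes passed in ΔNp63-labelled against control libraries, 11.7% as higher, and 33% passed in ΔNp73-labelled against control, 16.8% as higher and 16.1% as lower. For both Cre groups together, Iapp (0.91, adjusted p = 0.00813) and Ramp2 (0.79, adjusted p = 0.00938) passed, beside 32.8% of genes in either direction and 16.5% as higher. No member passed between the Cre groups, where 0.149% of genes did; the nearest was Ramp1 at -0.41 (adjusted p = 0.216).

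**Figure D2:**
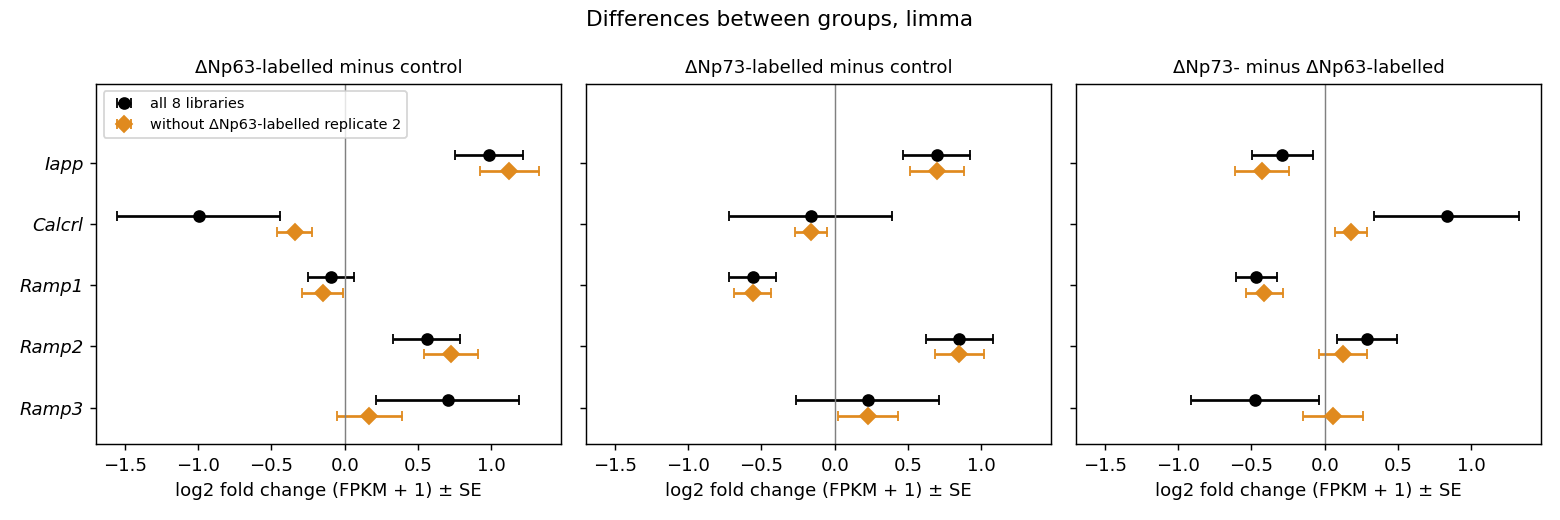
Log2 fold change of FPKM + 1 with its SE (horizontal axis) for the 5 genes, with a panel each for ΔNp63-labelled minus control, ΔNp73-labelled minus control and ΔNp73-labelled minus ΔNp63-labelled; black circles use all 8 libraries and orange diamonds leave out ΔNp63-labelled replicate 2. Iapp and Ramp2 keep positive values against control with both sets of libraries, while Calcrl in the ΔNp63-labelled group is at -0.996 with all libraries and at -0.34 without that replicate.

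Ramp1 took a smaller part of the RAMP transcripts in every Cre library than in both controls. It made up 80.0, 70.8 and 78.5% of the summed FPKM of the 3 Ramp genes in the ΔNp63-labelled libraries and 67.9, 72.8 and 75.2% in the ΔNp73-labelled ones, against 86.6 and 87.0% in the controls. The lowest share was that of ΔNp73-labelled replicate 1, and the controls were within 1 percentage point of each other. The share of Ramp2 was 12.5, 6.76 and 14.0% in the ΔNp63-labelled libraries and 23.3, 14.3 and 16.9% in the ΔNp73-labelled ones, against 5.78 and 7.92% in the controls, so that the ΔNp73-labelled group was above the controls and the ΔNp63-labelled group overlapped them. In ΔNp63-labelled replicate 2 the smaller Ramp1 share went with 22.5% of Ramp3, and Ramp3 was between 5.04 and 12.9% in the other 7 libraries. The summed FPKM of the 3 genes was 39.4 ± 5.51 in the ΔNp63-labelled group, 29.8 ± 2.73 in the ΔNp73-labelled group (SD, n = 3 each) and 36.9 ± 2.37 in the controls (SD, n = 2). The ratio of Iapp to Calcrl in FPKM was 0.793, 2.30 and 0.551 in the ΔNp63-labelled libraries and 0.501, 0.355 and 0.403 in the ΔNp73-labelled ones, against 0.249 and 0.173 in the controls. Every Cre library had Iapp above both controls and Calcrl below both, so this ratio had to be higher in each of them. Shares and ratios were computed after the levels were seen, and no test was made on them.

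**Figure D3:**
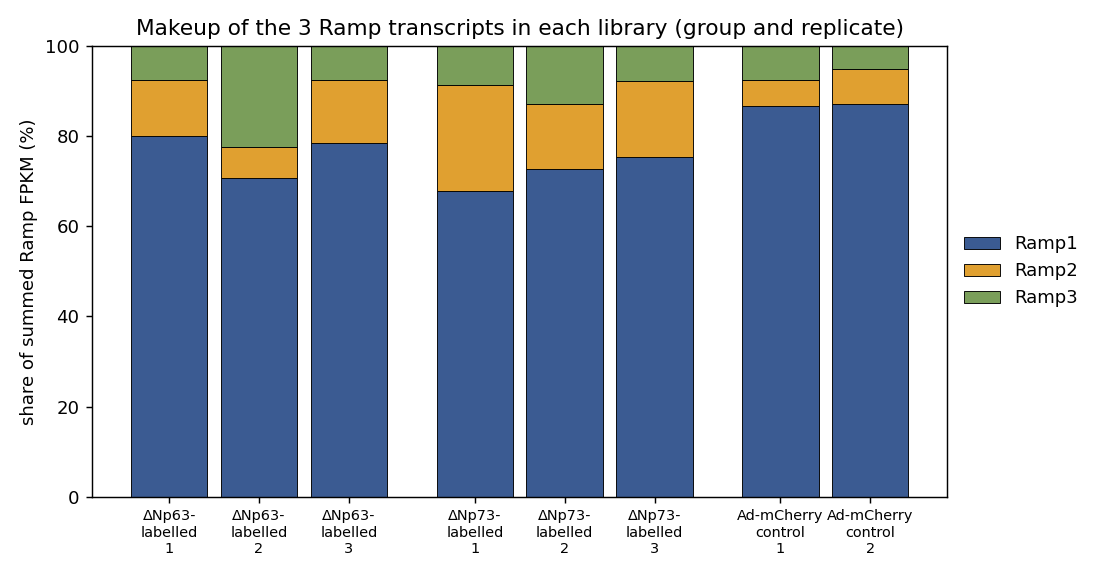
Share of Ramp1, Ramp2 and Ramp3 in their summed FPKM (vertical axis, percent) in each library, shown as stacked bars, with ΔNp63-labelled libraries on the left, ΔNp73-labelled in the middle and controls on the right. Ramp1 takes 86.6 and 87.0% in the controls and 67.9 to 80.0% in the 6 Cre libraries, with the largest Ramp2 share, 23.3%, in ΔNp73-labelled replicate 1.

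Calcrl and Ramp2 are known as genes of blood vessel endothelium, so both were set beside 19 measured endothelial marker genes of a list of 20. The summed FPKM of the list was 53.8 to 79.4 in the ΔNp63-labelled libraries and 70.7 to 123 in the ΔNp73-labelled ones, against 42.4 to 53.9 in the controls. The median log2 difference of its genes from control was 0.34 in the ΔNp63-labelled group, beside -0.020 over all genes tested, and 0.70 in the ΔNp73-labelled group, beside -0.071. No gene of the list passed the adjusted threshold (limma) with all 8 libraries. At an unadjusted p under 0.05, 4 and 12 of 19 were higher, beside 5.96 and 11.4% of all genes. Without ΔNp63-labelled replicate 2, 5 and 11 rose, beside 11.7 and 16.8% of all genes. Cdh5, the cadherin of endothelial junctions, was at 6.81, 3.83 and 5.50 FPKM in ΔNp63-labelled libraries and at 12.2, 10.6 and 6.90 FPKM in the ΔNp73-labelled ones, against 3.17 and 3.52 FPKM in the controls. Pecam1, an adhesion protein of endothelium that platelets and leukocytes also carry, was at 14.5 to 17.3 FPKM in the ΔNp63-labelled libraries and 15.5 to 21.6 FPKM in the ΔNp73-labelled ones, against 13.6 and 19.9 FPKM in the controls, and did not separate the groups. In bulk tissue, fewer cells of a type and less RNA per cell cannot be told apart.

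Relative to the endothelial list, Calcrl was lower in every Cre library than in both controls, while Ramp2 differed from control by little. The log2 level of Ramp2 minus the mean log2 level of the list was 0.49 ± 0.11 in the ΔNp63-labelled group, 0.44 ± 0.33 in the ΔNp73-labelled group (SD, n = 3 each) and 0.33 ± 0.068 in the controls (SD, n = 2). The differences from control, 0.16 and 0.11, had exact two-sided permutation p of 0.2 and 1, where 0.2 is the smallest possible. That of the ΔNp73-labelled group changed sign with another pseudocount and without 1 of its libraries. The ΔNp63-labelled libraries lay above the controls and the ΔNp73-labelled ones on both sides of them. For Calcrl the same quantity was 1.50 ± 0.91 in the ΔNp63-labelled group, 1.99 ± 0.40 in the ΔNp73-labelled group and 2.90 ± 0.10 in the controls. ΔNp63-labelled replicate 2, at 0.47, lay far below the other ΔNp63-labelled libraries, at 1.86 and 2.18, and the difference of that group from control was -1.39 with it and -0.88 without it. The difference over all 6 Cre libraries was -1.15, with an exact permutation p of 0.0714, the smallest that 6 against 2 libraries can give, and it was -0.90 without that library. In all 6 Cre libraries Calcrl itself was below both controls and the mean log2 level of the list was above both. The separation of Calcrl minus the list, and its smallest p, were therefore fixed by those levels and are no further result. For Ramp2 the difference of the ΔNp63-labelled group from control was 0.19 without ΔNp63-labelled replicate 2. The part of endothelial content in the levels of Ramp2 was not tested.

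**Figure D4:**
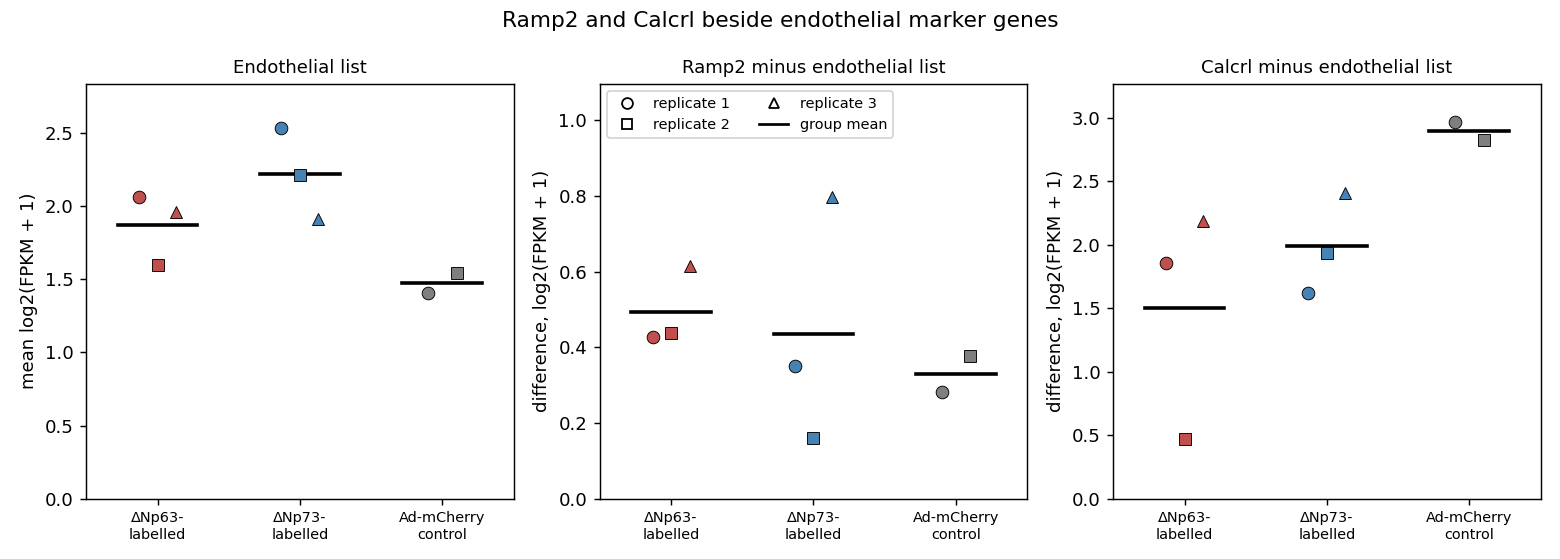
Mean log2(FPKM + 1) of 19 endothelial marker genes (left), Ramp2 minus that mean (middle) and Calcrl minus that mean (right) in every library, with bars for group means and groups from left to right ΔNp63-labelled, ΔNp73-labelled and control. Ramp2 minus the list lies on both sides of the controls in the ΔNp73-labelled group, whereas Calcrl minus the list lies at 2.82 and 2.97 in the controls and at or below 2.41 in the 6 Cre libraries.

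Among the other peptides that bind these receptors, adrenomedullin was the most abundant. Adm was at 15.7, 4.48 and 11.0 FPKM in ΔNp63-labelled libraries and at 20.1, 17.9 and 13.4 FPKM in the ΔNp73-labelled ones, against 7.34 and 7.19 FPKM in the controls. Its ΔNp73-labelled group lay above the controls, as did that of 27.7% of all genes, with a log2 difference of 1.12 (SE 0.43) and a limma adjusted p of 0.206. The ΔNp63-labelled group lay on both sides of the controls. Without ΔNp63-labelled replicate 2, Adm rose by 0.78 in the ΔNp63-labelled group (adjusted p = 0.0437) and by 1.12 in the ΔNp73-labelled group (adjusted p = 0.00715). Calca and Calcb, which encode calcitonin and the 2 forms of calcitonin gene-related peptide, and Adm2, the gene of intermedin, were at or below 3.28 FPKM in every library. With all 8 libraries, 0 of the 4 peptide genes passed in any comparison, and at an unadjusted limma p under 0.05 only Adm, in ΔNp73-labelled against control, and Calca, between the Cre groups, were called. Calca was lower in the ΔNp73-labelled libraries, at 0.663, 0.540 and 1.01 FPKM, than in the ΔNp63-labelled ones, at 1.74, 2.06 and 1.41 FPKM, without overlap (log2 difference -0.66, limma adjusted p = 0.432). Of all genes, 8.58% were likewise lower without overlap. Crcp, whose protein couples the calcitonin gene-related peptide receptor to its G protein and is also a subunit of RNA polymerase III, was lowest in the ΔNp73-labelled group. It was at 12.2, 11.4 and 14.0 FPKM in the ΔNp73-labelled libraries, against 16.7, 19.8 and 15.0 FPKM in the ΔNp63-labelled ones and 16.0 and 14.0 FPKM in the controls (log2 difference of the ΔNp73-labelled group -0.42 from the ΔNp63-labelled group, adjusted p = 0.465, and -0.24 from control, adjusted p = 0.425).

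The enzymes that turn proamylin into amylin are those of neuroendocrine secretory granules, and 4 of the 6 listed were in the table. Pam, which amidates the peptide's end as amylin's activity requires, was at 30.9, 9.35 and 8.68 FPKM in the ΔNp73-labelled libraries and at 8.76, 3.98 and 7.39 FPKM in the ΔNp63-labelled ones, against 6.04 and 4.73 FPKM in the controls. Cpe, the carboxypeptidase that trims the cut peptide, was at 5.94, 9.58 and 5.27 FPKM in the ΔNp73-labelled libraries, against 3.32, 1.53 and 3.61 FPKM in the ΔNp63-labelled ones and 4.60 and 2.66 FPKM in the controls. Both were above the controls in the ΔNp73-labelled group without overlap, as were 27.7% of all genes. Neither passed the adjusted threshold (0.248 and 0.257, limma). Pcsk1, a prohormone convertase, was at 7.59 FPKM in ΔNp63-labelled replicate 2 and at or below 0.321 FPKM in the other 7 libraries, and it did not reach the filter for testing. Scg5, the chaperone of a second convertase, was at 1.04 to 2.52 FPKM in all libraries. Of the 3 listed proteases that act on amylin, Ide and Mme overlap between all groups. Ide, the insulin-degrading enzyme and the most abundant of them, was at 14.7, 31.7 and 16.8 FPKM in ΔNp63-labelled libraries and at 18.1 to 19.9 FPKM in the ΔNp73-labelled ones, against 17.5 and 18.5 FPKM in the controls. Bace2, a membrane protease, was at 1.07, 1.19 and 1.20 FPKM in the ΔNp73-labelled libraries, above the controls without overlap, and at 1.14, 0.711 and 0.912 FPKM in the ΔNp63-labelled ones, against 0.723 and 0.898 FPKM in the controls. Its log2 difference from control in the ΔNp73-labelled group was 0.25 (limma adjusted p = 0.391), and 27.7% of all genes were likewise higher there without overlap.

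Markers of pancreatic islets, the usual source of amylin, were mostly low. Of 14 listed genes 6 were in the table, with a summed FPKM of 6.04 to 8.92 in the ΔNp63-labelled libraries and 10.1 to 25.9 in the ΔNp73-labelled ones, against 7.13 to 9.56 in the controls. Chga, the granule protein chromogranin A, was at 19.5, 11.6 and 3.89 FPKM in the ΔNp73-labelled libraries, against 1.83, 1.08 and 1.40 FPKM in the ΔNp63-labelled ones and 2.32 and 2.45 FPKM in the controls. Isl1, a transcription factor of islet cells and other lineages, was at 4.04, 4.20 and 3.15 FPKM in the ΔNp73-labelled libraries and at 3.03, 1.02 and 3.80 FPKM in the ΔNp63-labelled ones, against 2.04 and 1.58 FPKM in the controls. It was above the controls without overlap in the ΔNp73-labelled group (log2 difference 0.77, limma adjusted p = 0.261), as were 27.7% of all genes. Without ΔNp63-labelled replicate 2 it rose by 0.65 in the ΔNp63-labelled group (adjusted p = 0.0338) and by 0.77 in the ΔNp73-labelled group (adjusted p = 0.0104). Ins2, an insulin gene, was at 0.429, 0.476 and 0.230 FPKM in the ΔNp73-labelled libraries and at 1.51, 1.44 and 1.07 FPKM in the ΔNp63-labelled ones, against 1.38 and 1.07 FPKM in the controls. With all 8 libraries, 0 of the 5 tested islet genes passed in any comparison (limma). At an unadjusted p under 0.05, 1 was higher and 1 lower in the ΔNp73-labelled group than in control, beside 11.4 and 9.83% of all genes. Without ΔNp63-labelled replicate 2, the log2 difference from control in the ΔNp73-labelled group was 1.68 for Chga (limma adjusted p = 0.0465) and -0.69 for Ins2 (adjusted p = 0.0176). Leaving that library out changes only the SE and p-values of these 2 differences. In that fit 2 of 5 tested islet genes rose and 1 fell there, beside 16.8 and 16.1% of all genes. In the ΔNp63-labelled group 1 rose, beside 11.7%. Ppy and Mafa were at or below 1.57 FPKM in all libraries, and Ppy was listed at 0 in 1 of them. Most markers of some other cell types, macrophages, fibroblasts and thymocytes, also shifted in 1 direction against control. For adipocyte, neuron and thymic epithelial markers, the summed FPKM of both Cre groups overlapped the controls. All 12 measured macrophage markers had positive log2 differences from control, with medians of 1.07 in the ΔNp63-labelled and 1.65 in the ΔNp73-labelled group; 0 passed with all libraries (limma), 8 and 12 had an unadjusted p under 0.05, beside 5.96 and 11.4% of all genes as higher, and 12 and 12 rose without ΔNp63-labelled replicate 2, beside 11.7 and 16.8%. Their summed FPKM was 426 to 1139 in the ΔNp63-labelled libraries and 1052 to 1351 in the ΔNp73-labelled ones, against 391 to 444 in the controls, and the lowest of these values in a Cre library, that of ΔNp63-labelled replicate 2, lies within the range of the controls. Fibroblast markers had summed FPKM of 128 to 251 and 291 to 374 in these groups, against 103 to 108 in the controls. With all libraries 1 of 11 rose in the ΔNp73-labelled group (limma), beside 0.0542% of all genes called in either direction. Without ΔNp63-labelled replicate 2, 5 and 9 rose, beside 11.7 and 16.8% of all genes. Thymocyte markers had negative log2 differences in 13 of 14 and 12 of 14 genes, with summed FPKM of 2234 to 4333 and 2413 to 3933, against 5127 to 5629 in the controls. None of the 14 passed with all 8 libraries (limma), and 2 and 4 were lower at an unadjusted p under 0.05, beside 7.03 and 9.83% of all genes. Without ΔNp63-labelled replicate 2, 1 rose and 1 fell in the ΔNp63-labelled group and 8 fell in the ΔNp73-labelled group, beside 10.8 and 16.1% of all genes as lower. The part of these cell types in the levels of Iapp and Ramp2 was not tested.

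**Figure D5:**
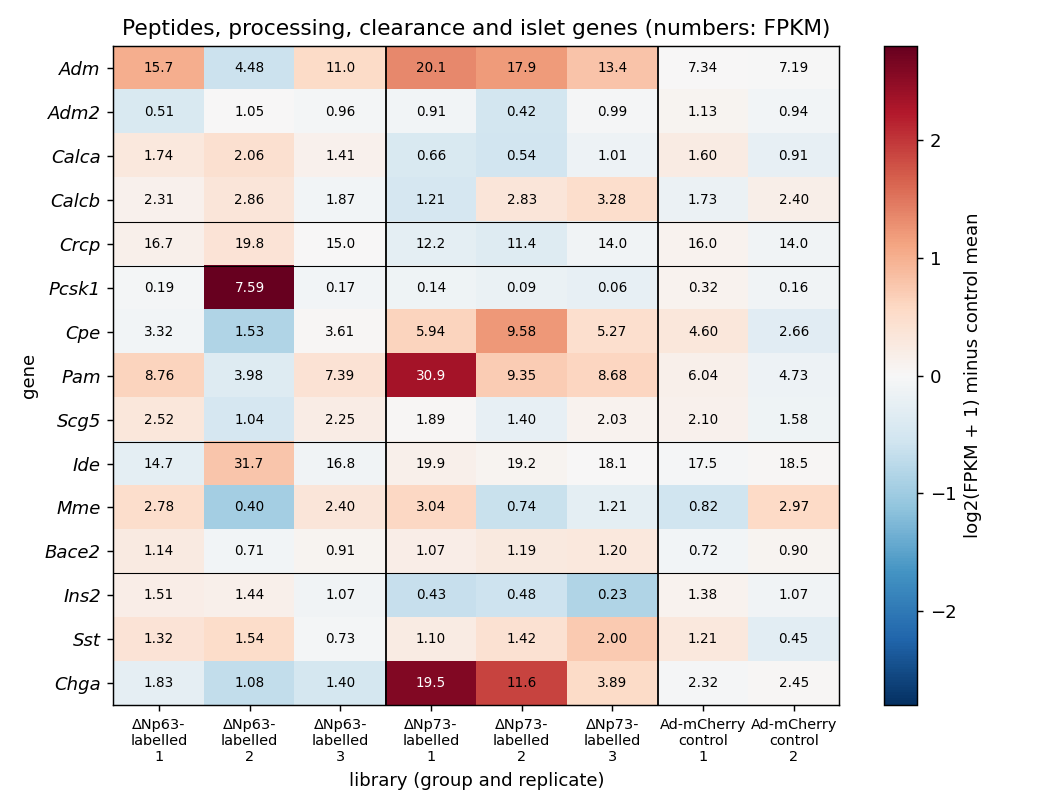
FPKM (numbers) and log2(FPKM + 1) minus the control mean (colour, red above control and blue below) of related peptides, Crcp, processing enzymes, clearance enzymes and islet genes, with genes in rows and the 8 libraries in columns, ΔNp63-labelled, ΔNp73-labelled and control from left to right. Adm, Pam and Chga are red in the ΔNp73-labelled libraries, Ins2 is blue there, and Pcsk1 stands out at 7.59 FPKM in ΔNp63-labelled replicate 2.

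Downstream of the receptors, no gene of the cyclic AMP pathway passed the test with all 8 libraries. Of 27 listed genes 23 were in the table and 19 were tested, and 0 passed in any comparison (limma); at an unadjusted p under 0.05, 2 were higher and 1 lower in the ΔNp63-labelled group, and 1 was higher and 1 lower in the ΔNp73-labelled group. Over all genes the shares were 5.96% higher and 7.03% lower in the ΔNp63-labelled group, and 11.4% higher and 9.83% lower in the ΔNp73-labelled group. Without ΔNp63-labelled replicate 2, 3 rose and 2 fell in the ΔNp63-labelled group, beside 11.7 and 10.8% of all genes, and 3 rose and 1 fell in the ΔNp73-labelled group, beside 16.8 and 16.1%. Their median log2 difference from control was -0.17 in the ΔNp63-labelled and -0.061 in the ΔNp73-labelled group, beside -0.020 and -0.071 over all genes tested. Gnas, the stimulatory G protein alpha subunit, was at 42.6, 40.8 and 45.2 FPKM in the ΔNp63-labelled libraries and 48.0, 54.8 and 47.7 FPKM in the ΔNp73-labelled ones, against 46.5 and 52.5 FPKM in the controls. Prkar1a, a regulatory subunit of protein kinase A, was at 68.3 to 89.5 FPKM in the ΔNp63-labelled libraries and 78.9 to 92.2 FPKM in the ΔNp73-labelled ones, against 88.3 and 89.5 FPKM in the controls. Both stood above all 5 members in FPKM in every library.

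Of 10 genes that govern where these receptors go in the cell, 0 passed with all libraries (limma), and at an unadjusted p under 0.05, 0 were called in the ΔNp63-labelled and 3 in the ΔNp73-labelled group, all higher, as were 11.4% of all genes. Without ΔNp63-labelled replicate 2, 2 and 4 rose, beside 11.7 and 16.8% of all genes. Slc9a3r1, a scaffold known to bind RAMP3, was at 53.4, 44.2 and 55.9 FPKM in the ΔNp63-labelled libraries and 44.5, 53.4 and 59.3 FPKM in the ΔNp73-labelled ones, each below the 59.7 and 61.8 FPKM of the controls. Of all genes, 12.7% were below both controls in every Cre library. Arrb2, a beta-arrestin that takes receptors from the surface and that leukocytes express, was at 51.2, 26.5 and 47.6 FPKM in ΔNp63-labelled libraries and at 44.1, 46.0 and 44.2 FPKM in the ΔNp73-labelled ones, against 29.3 and 25.8 FPKM in the controls. Its log2 difference from control was 0.53 (limma adjusted p = 0.455) and 0.68 (adjusted p = 0.215), and without ΔNp63-labelled replicate 2 it rose by 0.82 (adjusted p = 0.00325) and 0.68 (adjusted p = 0.00305).

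The genes whose pattern over the 8 libraries was most like each member were found by Pearson's r of log2(FPKM + 1) among 11518 genes; r is a description here, since the libraries share groups and 1 library stands apart. For Iapp the 5 nearest were Snx24 (r = 0.927), Clk4, Sema4b, Htra2 and Mob3c (r = 0.912). For Ramp1 they were Dcdc2c (r = 0.986), Chrna9, Ccdc71, Rbak and Stat5a (r = 0.973). For Ramp2 they were Slc35f5 (r = 0.981), Meox2, Gaa, Herpud1 and Fuca2 (r = 0.967). Calcrl and Ramp3 had patterns in which ΔNp63-labelled replicate 2 stood apart. Calcrl was nearest to Rasa1 (r = 0.998), Herc2, Braf, Klhl24 and Casp6 (r = 0.994), all lowest in that library, and Ramp3 to Smyd5 (r = 0.992), Rabepk, Sars, Zfp365 and Paqr4 (r = 0.976), all highest in it. Over the 7 libraries without it, a choice added after seeing the data, the nearest genes were Slc47a1 for Iapp (r = 0.981), Pdzd8 for Calcrl (r = 0.997), Rcl1 for Ramp1 (r = 0.990), Dnajb9 for Ramp2 (r = 0.994) and Smyd5 for Ramp3 (r = 0.971). Of the 5 nearest with all libraries, only Ccdc71 for Ramp1 and Smyd5 for Ramp3 were among the 5 nearest without it.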

How the data were processed

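RNA-seq of 8 mouse thymic lymphoma libraries was analysed from 1 table of FPKM per RefSeq transcript, which the authors deposited quantile-normalised between libraries. Per the submitters' processing notes, TopHat2 2.0 and Cufflinks 2.0 were used with the mm9 build; the role of each is not given in the sources used here. The table holds no counts, so depth is unknown and no counting interval is given, and quantile normalisation hides any change in total RNA. The table has 16589 entries under 13681 symbols, and the entry with the highest mean was kept per symbol. The 12921 genes with FPKM no lower than 1 in 2 or more libraries entered limma 3.58.1 (R 4.3.3) on the log2(FPKM + 1) scale (3 groups in 1 model, 5 residual degrees of freedom, intensity trend, two-sided), with Benjamini-Hochberg adjustment over all of them and a threshold of 0.05. The pipeline was tested on simulated data in which the planted differences were larger than those of the members. That test does not show how well differences of the members' size are found, and its outcome is not given here. Single values were compared by exact permutation over libraries (Python 3.11.15). The members, gene lists and tests were chosen with earlier results of these data known. The genes named are the members, all measured genes of the calcitonin family, amylin processing and amylin clearance lists, up to 4 of the most abundant genes of other lists, and the 5 genes with the highest r per member; small RNAs, unnamed gene models and antigen receptor segments were left out of the last. Alternatives were another pseudocount, no filter, summed entries, other scaling, no trend, array weights, only the groups compared, and leaving out each library.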

Additional observations from a re-analysis of the deposited data

How the results depend on the processing

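The depth of the libraries is unknown, and 2 to 3 libraries a group limit every test. No paired analysis was possible because the labels give no replicate numbers. With settings other than leaving out a library, 148 recomputed values kept their direction and side of the threshold or, for counts of genes, moved by no more than 1.5 times. Of the others, 11 came to pass the threshold, 8 counts of genes moved by over 1.5 times and 3 values changed sign. With a library left out, the same numbers were 205, 7, 22 and 6. Array weights lower the weight of a discordant library. With them, 4480 of 12921 genes passed in ΔNp63-labelled against control, 6569 in ΔNp73-labelled against control and 6296 in both. Several members were among the genes moved past the threshold (limma, adjusted p). Against control these were Iapp at 1.16 in the ΔNp63-labelled group (0.00318), 0.54 in the ΔNp73-labelled group (0.0199) and 0.85 in both (0.00223), Ramp2 at 0.70 (0.0130), 0.67 (0.00387) and 0.69 (0.00298), and Ramp1 at -0.56 in the ΔNp73-labelled group (0.00112) and -0.35 in both (0.00873). With only the groups compared in the fit, ΔNp73-labelled against control leaves out the ΔNp63-labelled libraries. There Iapp at 0.70 (0.0411), Ramp2 at 0.85 (0.0205) and Ramp1 at -0.56 (0.0298) passed, together with many other genes, counted below. The setting has no value for both Cre groups, whose comparison uses all 8 libraries.

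The count of all genes past the threshold was 12 in ΔNp63-labelled against control libraries, 7 in ΔNp73-labelled against control, 15 in both Cre groups against control and 7 in ΔNp73-labelled against ΔNp63-labelled. In ΔNp63-labelled against control it was 4480 with array weights, 5 with only the groups compared, and 3 to 2882 with a library left out. In ΔNp73-labelled against control it was 18 with a pseudocount of 0.1, 6569 with array weights, 3890 with only the groups compared, and 0 to 4212 with a library left out. In both Cre groups it was 9 without the intensity trend, 6296 with array weights, and 0 to 4194 with a library left out. In ΔNp73-labelled against ΔNp63-labelled it was 344 with array weights and 6 to 19 with a library left out. Among the fits with a library left out, each highest count came without ΔNp63-labelled replicate 2, and the counts of 0 came without a control.

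Signs turned for some differences, and not only for small ones. Those of ΔNp73-labelled from ΔNp63-labelled libraries that turned included Ramp3, at -0.48 in the main setting, and Calcrl relative to the endothelial list, at 0.48. Between ΔNp73-labelled and ΔNp63-labelled libraries, array weights gave -0.029 for Ramp2 and 0.21 for Ramp3. Ramp2 relative to the endothelial list in ΔNp73-labelled against control was -0.021 with a pseudocount of 0.1. The cause was not tested. With a library left out, the log2 difference from control in the ΔNp63-labelled group was 0.77 to 1.20 for Iapp and 0.44 to 0.73 for Ramp2. In the ΔNp73-labelled group it was 0.48 to 0.91 for Iapp, -0.66 to -0.46 for Ramp1, 0.73 to 0.99 for Ramp2 and -0.029 to 0.48 for Ramp3. For both Cre groups it was 0.63 to 1.05 for Iapp and 0.59 to 0.82 for Ramp2. Between ΔNp73-labelled and ΔNp63-labelled libraries it was -0.75 to 0.057 for Ramp3, and relative to the endothelial list -0.24 to 0.080 for Ramp2 and -0.032 to 0.82 for Calcrl. Ramp2 relative to that list in ΔNp73-labelled against control was -0.074 to 0.24. The turned signs came without control replicate 2 (Ramp3, -0.029), ΔNp63-labelled replicate 2 (Ramp3, 0.057, and Calcrl, -0.032), ΔNp73-labelled replicate 3 (Ramp2, -0.074), ΔNp63-labelled replicate 3 (Ramp2, 0.0034) and ΔNp73-labelled replicate 2 (Ramp2, 0.080).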
